A study of Mus musculus with 9 samples.

Results

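MHC class II molecules display peptides to CD4+ T cells, and the costimulatory molecules CD40, CD80 and CD86 carry the additional signals that decide whether such a T cell is activated. The 10 genes described here are H2-Aa, H2-Ab1 and H2-Eb1 (class II chains), Cd74 (invariant chain), Ciita (class II transactivator), H2-DMa and H2-DMb1 (peptide loading), and Cd40, Cd80 and Cd86 (costimulation). They were taken from the table by symbol, with no threshold on their values, and all 10 were found among the 15343 genes of the deposited expression table. All 10 also passed the filter on low values, which kept 13895 genes.

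RNA was sequenced from primary mouse macrophages of the peritoneal cavity, marked as wild type in the sample titles and of a strain the labels write CF7B1/6. Every library came from cells given LPS, the lipopolysaccharide of Gram-negative bacteria that TLR4 detects, at 100 ng/ml for 6 h. The LPS group received nothing else, the DHA group received docosahexaenoic acid (an omega-3 fatty acid) at 100 µM for 1 h before LPS, and the cpdA group received cpdA, a small molecule described in the labels as an agonist of the fatty acid receptor Gpr120, at 10 µM for 1 h before LPS. Each group held 3 libraries. Libraries without LPS, or with DHA or cpdA alone, were not analysed here, so every value below is a level under LPS or a difference between LPS-treated groups. The age and sex of the animals, and whether the replicates came from separate animals or cultures, are not given in the labels, so p-values measure the spread between these libraries, which may be technical.

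Class II α and β chains are made together with the invariant chain, which CD74 supplies as a chaperone that fills the peptide groove until the endosome is reached. There H2-DM, a nonclassical class II heterodimer, exchanges the remnant of the invariant chain for a peptide. CIITA is a coactivator that does not bind DNA itself: it is recruited to the promoters of class II, Cd74 and H2-DM genes by factors on conserved elements called the X box (bound by the RFX complex) and the Y box (bound by NF-Y). In macrophages class II is classically induced by interferon gamma, whereas CD40, CD80 and CD86 are raised by microbial signals such as LPS.

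The promoters are shown because the class II and H2-DM genes share these elements and Ciita is among the genes measured. RefSeq start sites (build GRCm38.p6) were at hand for 5 of the 10 genes, in 6 windows, since H2-DMa has more than 1 start. Each window ran from 250 bases before the start to 50 bases after it and was searched on both strands for GATTGG (Y box), the X box core (GCAAC, any base, GATG), TTCNNNGAA (gamma-activated site) and a kappa B motif (GGG, any 5 bases, CC). The Y box letters were found in 4 of the 6 windows and in 16.1% of all 32851 promoter windows. The X box letters were found in 1 of the 6 and in 0.192% of all. Only these exact letters were searched, so a window without a match may still hold an X box with other letters. The gamma-activated site was found in 0 of the 6 and in 8.3% of all, and the kappa B letters in 4 of the 6 and in 50.8% of all. The 120 bases before the start are printed 5′ to 3′ on the strand of the gene for 3 of them, with X box and Y box matches in capitals. H2-Eb1 lies on the plus strand (chr17:34305747-34305866), H2-Aa on the minus strand (chr17:34287824-34287943) and H2-DMb1 on the plus strand (chr17:34153071-34153190).
H2-Eb1: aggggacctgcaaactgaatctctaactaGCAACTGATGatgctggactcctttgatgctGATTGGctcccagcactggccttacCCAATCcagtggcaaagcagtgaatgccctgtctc
H2-Aa: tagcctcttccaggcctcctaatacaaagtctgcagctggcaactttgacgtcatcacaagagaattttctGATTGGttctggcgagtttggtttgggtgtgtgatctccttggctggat
H2-DMb1: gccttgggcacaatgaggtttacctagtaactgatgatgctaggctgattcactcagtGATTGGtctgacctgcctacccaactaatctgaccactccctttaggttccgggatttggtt
In H2-Eb1 the X box match began 91 bases before the start and the nearer Y box match 60 bases before it, with a further match on the opposite strand at 35 bases. The kappa B match of this gene began at 43 bases and covers the CC that opens that second Y box match. The Y box match of H2-Aa began 49 bases before the start and that of H2-DMb1 62 bases before it. Only 16 of the 32851 windows, 0.0487%, held both the X box core and the Y box letters. A match is a description of the letters and says nothing of binding in these cells.

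The table holds read counts divided by a size factor for each library, called normalised counts here, and the recovered depth ranged from 13797079 to 37572822 reads. cpdA 3 and LPS 3 stood apart from the other 7 libraries, along the first principal component of all genes (40.5% of the variance) and the second (28.8%) respectively. Results are therefore given for all 9 libraries and again for the 7 that remain without those 2. The 2 were chosen by their values in these same data, and the p-values of the fit to 7 do not allow for that choice. Changes are differences in log2(normalised count + 1) from limma, with Benjamini-Hochberg adjustment over the 13895 genes and a threshold of 0.05. In a bulk sample fewer cells of a type and less RNA per cell cannot be told apart. Values of different genes are not compared as levels, because gene lengths were not used.

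All 10 genes had lower group means after DHA and after cpdA than with LPS alone, and none passed the test in the fit of all 9 libraries. All 10 log2 changes were negative in both, against 50.2% and 50.6% of all genes. This was not particular to the 10: all 17 class I presentation genes described further below were negative too, with medians of -0.41 and -0.52. limma called 0 of the 10 in the DHA comparison, where it called 0.0072% of all genes. It also called 0 of the 10 in the cpdA comparison, where it likewise called 0.0072%. The median log2 change of the 10 genes was -0.25 for DHA and -0.36 for cpdA, beside -0.0007 and -0.0043 for all genes. An unadjusted limma p under 0.05 was reached by 2 of the 10 for DHA (Ciita and Cd86), where 14.2% of all genes reached it, and by 4 of the 10 for cpdA (Ciita, H2-DMb1, Cd80 and Cd86), where 14.6% did. edgeR, run on the recovered reads, called 0 of the 10 for DHA (0.0216% of all genes) and 0 for cpdA (0.0072%). Its unadjusted p was under 0.05 for 3 of the 10 in each comparison, against 15.1% and 15.3% of all genes. All 3 DHA libraries lay below all 3 LPS libraries for 4 of the 10 genes, against 15% of all genes. All 3 cpdA libraries lay below them for 5 of the 10, against 12.2% of all genes. For 0 of the 10 were all 3 libraries of either group above all LPS libraries. Among all genes that held for 13% with DHA and 10.7% with cpdA. Both comparisons use the same LPS libraries.

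**Figure D1:**
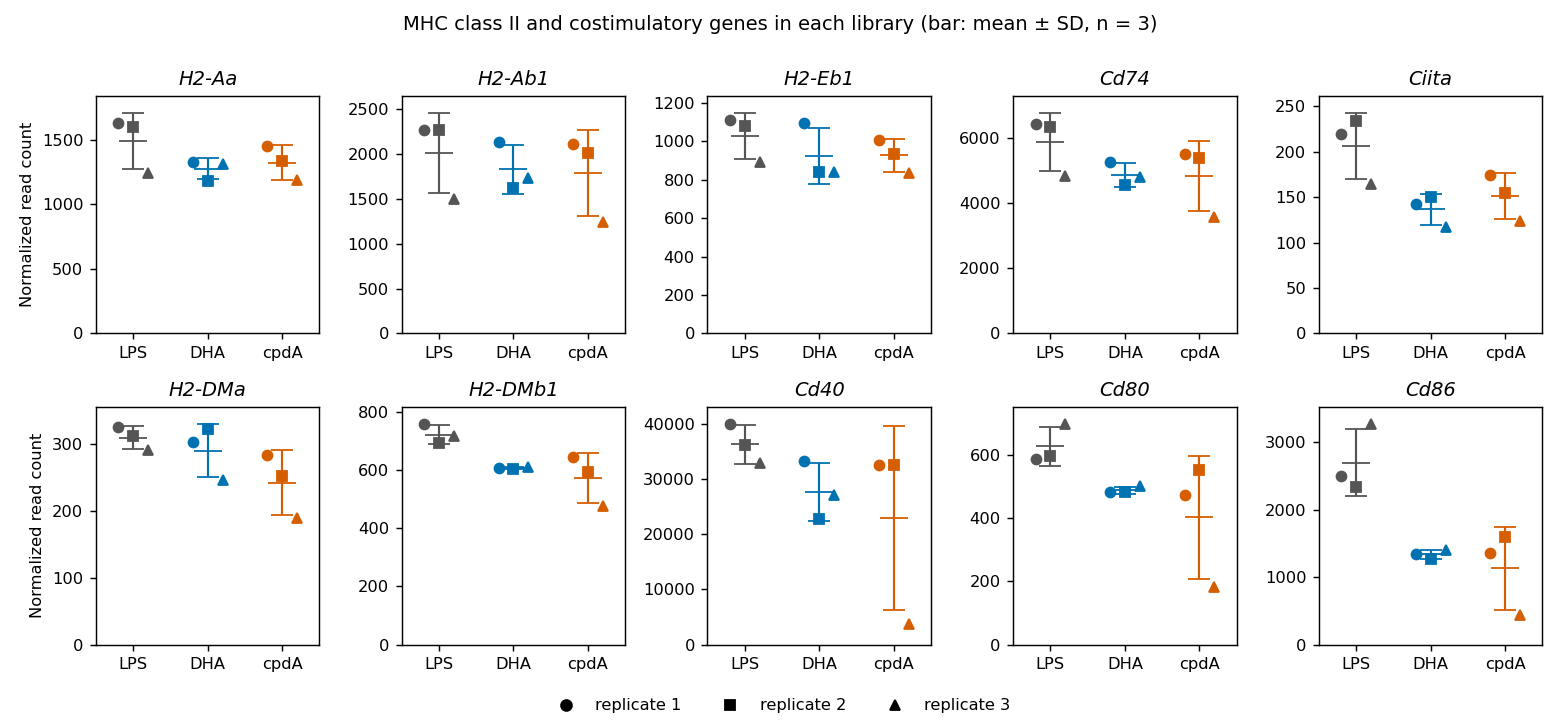
Normalised counts of each of the 10 genes (vertical axes, linear and starting at 0) in the 3 LPS, 3 DHA and 3 cpdA libraries (horizontal axes), 1 symbol per library by replicate number, with the mean ± SD of each group (n = 3). Cd86 shows all 6 treated libraries at or below 1591 and all LPS libraries at or above 2334, while Cd40, Cd80 and Cd86 each have 1 cpdA point, cpdA 3, far below the rest.

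Cd86, the CD28 and CTLA-4 ligand that macrophages carry before and after activation, had the largest fitted difference from LPS of the 10 genes in both comparisons. Its normalised counts (Entrez 12524) were 2494, 2334 and 3264 in the LPS libraries. They were 1346, 1269.7 and 1403 with DHA and 1359, 1591 and 433 with cpdA. Every treated library was below every LPS library, and the highest treated library, cpdA 2, reached 1591 against 2334 in the lowest LPS library. The means were 2697 ± 497 (SD, n = 3) with LPS, 1340 ± 67.0 (SD, n = 3) with DHA and 1127 ± 613 (SD, n = 3) with cpdA. The fitted difference from LPS was -0.99 on the log2 scale for DHA (SE 0.413, 95% interval -1.93 to -0.06, limma adjusted p = 0.332), or 1.99-fold lower. It was -1.45 for cpdA (SE 0.413, 95% interval -2.38 to -0.51, limma adjusted p = 0.230), or 2.73-fold lower. Neither passed the threshold with all 9 libraries.

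Without cpdA 3 and LPS 3, Cd86 fell in both comparisons. The DHA change was -0.85 on the log2 scale (SE 0.0903, limma adjusted p = 0.000542), a 1.8-fold decrease. The cpdA change was -0.71 (SE 0.0990, limma adjusted p = 0.00577), a 1.64-fold decrease. That fit called 4.04% of all genes lower for DHA and 0.885% lower for cpdA. Leaving out cpdA 3 alone also gave a call for DHA (limma adjusted p = 0.0164), with the same change of -0.99, since cpdA 3 enters the DHA comparison only through the shared estimate of spread. Over 22 alternative settings the adjusted p for Cd86 ranged from 0.000542 to 0.676 for DHA and from 0.00577 to 0.469 for cpdA, and passed the threshold in 3 settings for each.

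Cd80, the second CD28 and CTLA-4 ligand, had a smaller difference in the same direction. Its normalised counts (Entrez 12519) were 586, 597 and 696 with LPS, 481.5, 481.5 and 499.7 with DHA, and 474, 550.2 and 181 with cpdA. The DHA libraries were within 1.04-fold of each other and all below the LPS libraries, and the cpdA libraries were also all below them, with cpdA 3 far under the other 2. The log2 difference from LPS was -0.36 for DHA (SE 0.346, limma adjusted p = 0.658) and -0.79 for cpdA (SE 0.346, limma adjusted p = 0.340). In the 7 remaining libraries it was -0.28 for DHA (limma adjusted p = 0.106) and -0.21 for cpdA (limma adjusted p = 0.478), so the cpdA estimate was much closer to 0 there.

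Cd40, the TNF receptor family member that receives the CD40 ligand of T cells, gave the widest intervals of the 10 genes. Its normalised counts (Entrez 21939) were 39856, 36159 and 32827 with LPS. They were 33213, 22707 and 27001 with DHA and 32592, 32458 and 3711 with cpdA. DHA 1 lay above the lowest LPS library, so these groups overlapped. All 3 cpdA libraries were below LPS, but cpdA 1 and cpdA 2 were close to LPS 3. limma put the log2 difference at -0.41 for DHA (95% interval -2.02 to 1.21, limma adjusted p = 0.823) and -1.20 for cpdA (95% interval -2.81 to 0.42, limma adjusted p = 0.462). Over the 7 remaining libraries it was -0.48 for DHA (limma adjusted p = 0.0652) and -0.22 for cpdA (limma adjusted p = 0.672). Most of the cpdA estimate for Cd40 therefore came from cpdA 3, where the gene was 10.2-fold below the mean of LPS 1 and LPS 2.

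None of the 3 class II chains passed the test when all 9 libraries were used. H2-Aa, the α chain of I-A (Entrez 14960), had normalised counts of 1636, 1598 and 1246 with LPS, 1331, 1182 and 1317 with DHA, and 1455, 1334 and 1187 with cpdA. LPS 3 was lower than DHA 1, DHA 3, cpdA 1 and cpdA 2, so both treated groups overlapped the LPS group. On the log2 scale H2-Aa differed by -0.22 with DHA (SE 0.126, limma adjusted p = 0.449) and -0.17 with cpdA (SE 0.126, limma adjusted p = 0.567). H2-Aa fell with DHA in the fit without cpdA 3 and LPS 3 (-0.34, SE 0.0847, limma adjusted p = 0.0348), a 1.27-fold decrease, and was not called with cpdA (-0.21, limma adjusted p = 0.393).

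H2-Ab1, the β chain of I-A (Entrez 14961), had normalised counts of 2276, 2266 and 1501 with LPS, 2138, 1619 and 1734 with DHA, and 2117, 2009.7 and 1241 with cpdA. All 3 groups overlapped, and the replicate numbered 3 was the lowest in both the LPS and the cpdA group. The log2 difference was -0.12 for DHA (limma adjusted p = 0.840) and -0.18 for cpdA (limma adjusted p = 0.754), and without cpdA 3 and LPS 3 it was -0.32 (limma adjusted p = 0.0982) and -0.14 (limma adjusted p = 0.749). H2-Eb1, the β chain of I-E (Entrez 14969), had normalised counts of 1112, 1079.8 and 892 with LPS, 1094.5, 842 and 839 with DHA, and 1007, 936 and 837 with cpdA. The groups again overlapped, with log2 differences of -0.16 for DHA (limma adjusted p = 0.616) and -0.15 for cpdA (limma adjusted p = 0.650). Reads of closely related class II genes may be shared between them, and the handling of such reads is not given in the sources used here.

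Cd74, the invariant chain (Entrez 16149), had normalised counts of 6425, 6344 and 4843 with LPS, 5269.8, 4542 and 4815 with DHA, and 5504, 5386 and 3582 with cpdA. LPS 1 and LPS 2 were above all other libraries, whereas LPS 3 was inside the range of both treated groups. Its log2 difference from LPS was -0.26 for DHA (SE 0.184, limma adjusted p = 0.536) and -0.30 for cpdA (SE 0.184, limma adjusted p = 0.479). Cd74 fell with DHA when those 2 libraries, LPS 3 and cpdA 3, were left out (-0.39, SE 0.0867, limma adjusted p = 0.0223), a 1.31-fold decrease, and was not called with cpdA (-0.23, limma adjusted p = 0.366).

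Ciita, which controls transcription of the class II, Cd74 and H2-DM genes, had the largest DHA difference of the 7 genes other than Cd40, Cd80 and Cd86. Its normalised counts (Entrez 12265) were 219.5, 234 and 165 with LPS, 143, 150.0 and 117 with DHA, and 175, 155 and 124 with cpdA. All DHA libraries were below all LPS libraries, and cpdA 1 was above LPS 3. The log2 difference was -0.58 for DHA (SE 0.191, 95% interval -1.01 to -0.15, limma adjusted p = 0.273) and -0.44 for cpdA (SE 0.191, 95% interval -0.87 to -0.01, limma adjusted p = 0.334). Ciita fell with DHA over the 7 libraries without cpdA 3 and LPS 3 (-0.73, SE 0.149, limma adjusted p = 0.0153), a 1.66-fold decrease, and was not called with cpdA (-0.46, limma adjusted p = 0.269). Ciita rested on the fewest reads: the 64 reads of DHA 1 gave an exact 95% Poisson interval of 109.9 to 182 normalised counts, which covers counting error only and reaches past LPS 3.

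H2-DMa and H2-DMb1, the chains of the H2-DM peptide editor, had negative fitted differences from LPS in both comparisons, and none passed the test. H2-DMa (Entrez 14998) had normalised counts of 326, 313 and 292 with LPS, 303, 322.5 and 247 with DHA, and 285, 253 and 189 with cpdA. DHA 1 and DHA 2 lay within the LPS range, and all cpdA libraries lay below it. H2-DMa differed on the log2 scale by -0.10 for DHA (limma adjusted p = 0.811) and -0.37 for cpdA (limma adjusted p = 0.344). H2-DMb1 (Entrez 14999) had 757.5, 693 and 717 with LPS, 609, 603 and 609.9 with DHA, and 644, 595 and 477 with cpdA. Every treated library was below every LPS library, and the DHA libraries were within 1.01-fold of each other. The log2 difference was -0.25 for DHA (95% interval -0.51 to 0.01, limma adjusted p = 0.361) and -0.35 for cpdA (95% interval -0.60 to -0.09, limma adjusted p = 0.250). Over the 7 remaining libraries neither H2-DM chain was called in either comparison, with changes between -0.14 and -0.25, those of H2-DMb1 being -0.25 for DHA and -0.23 for cpdA, and limma adjusted p from 0.108 to 0.572.

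**Figure D2:**
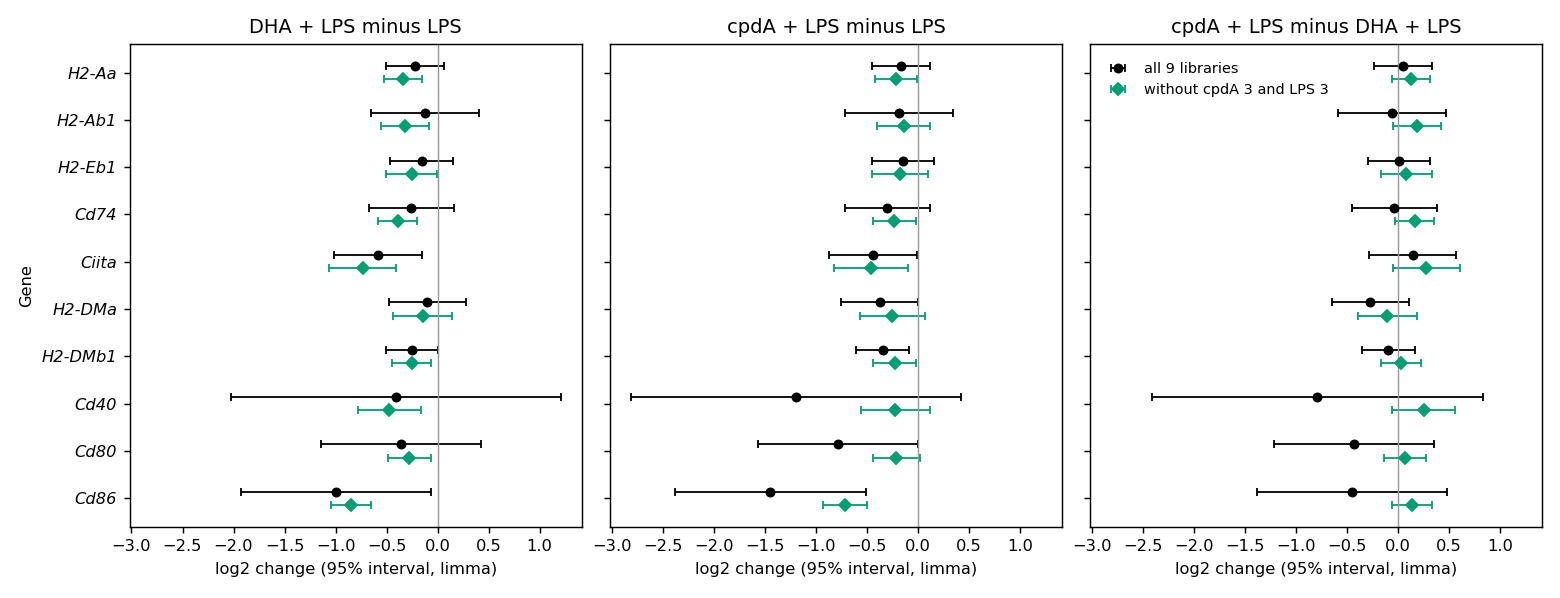
Log2 changes of the 10 genes (vertical axis) in the 3 comparisons, with 95% intervals from limma, for all 9 libraries (black circles) and without cpdA 3 and LPS 3 (green diamonds). The intervals of Cd40, Cd80 and Cd86 are much narrower without those libraries, and Cd86 stays below 0 in both comparisons with LPS.

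In the fit without cpdA 3 and LPS 3, 4 of the 10 genes fell with DHA (H2-Aa, Cd74, Ciita and Cd86), where 6.79% of all genes were called in either direction, and 1 fell with cpdA (Cd86), where 1.6% were. The median log2 change of the 10 genes was then -0.33 for DHA and -0.22 for cpdA. LPS 3, left out there, was the lowest LPS library for H2-Aa, Cd74 and Ciita. With only 1 library left out at a time, these genes were not called with DHA. Their lowest limma adjusted p was then 0.290, 0.237 and 0.0886. That more genes passed with DHA than with cpdA is no test of a difference between the compounds, and the LPS and cpdA groups had 2 libraries left each. DESeq2 on the recovered reads of all 9 libraries called Cd86 lower with cpdA (log2 change -1.26, DESeq2 adjusted p = 0.0384), where it called 1.42% of all genes lower, and called 0 of the 10 with DHA, where it called 1.07% lower. A fit that weights each library by its own spread gave cpdA 3 a weight of 0.13 and LPS 3 a weight of 0.223. It called 8 of the 10 lower with DHA, where it called 14.8% of all genes lower, the exceptions being Cd40 and Cd80, and it called Cd86 lower with cpdA, where it called 1.88% lower.

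In the libraries that stood apart the class II genes and the costimulatory genes differed by unlike amounts. Against the mean of LPS 1 and LPS 2, LPS 3 was lower in the class II chains and Cd74 by log2 differences of -0.30 to -0.60 and in Ciita by -0.46. In the same library Cd80 was higher by 0.23 and Cd86 higher by 0.44, while Cd40 was at -0.21 and H2-DMb1 at -0.014. cpdA 3 was lower in all 10 genes, with log2 differences of -0.39 to -0.87 in the class II chains and Cd74, -1.70 in Cd80, -2.48 in Cd86 and -3.35 in Cd40. The other treated libraries lay closer together. Cd86 was between -0.78 and -0.93 in the 3 DHA libraries and at -0.83 and -0.60 in cpdA 1 and cpdA 2. Over the same 5 libraries the class II chains and Cd74 ranged from -0.49 to -0.0016.

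**Figure D3:**
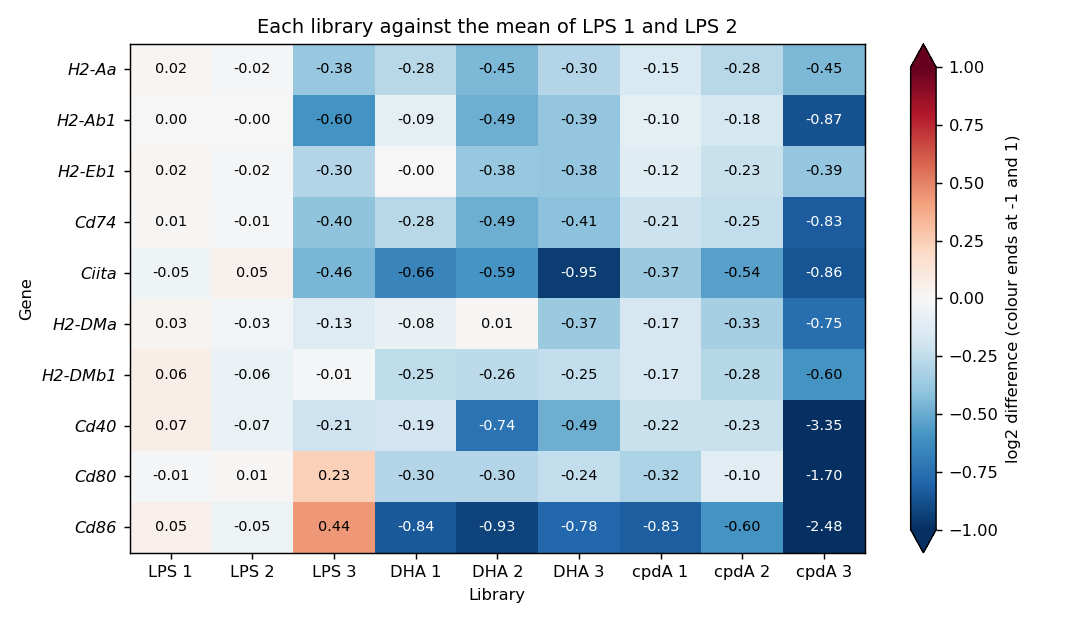
Log2 difference of each library (horizontal axis) from the mean of LPS 1 and LPS 2 for the 10 genes (vertical axis), with the value in each cell and a colour scale that ends at -1 and 1. LPS 3 is negative for the class II chains, Cd74 and Ciita and positive for Cd80 (0.23) and Cd86 (0.44), and cpdA 3 is negative throughout, to -3.35 for Cd40.

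DHA and cpdA were given at different doses, 100 µM and 10 µM, so the values stand side by side as those of these doses and not as a comparison at matched doses. cpdA and DHA libraries overlapped for all 10 genes, where 2.61% of all genes had every cpdA library below and 3.04% every cpdA library above the DHA libraries. limma called 0 of the 10 between them, as it called 0% of all genes, and 0 of the 10 had an unadjusted p under 0.05, against 1.02% of all genes. edgeR called 0 as well, with 0 of the 10 under 0.05 before adjustment against 1.19% of all genes, and DESeq2 called 0. The log2 difference of cpdA from DHA ran from -0.79 for Cd40 to 0.14 for Ciita, each with a limma adjusted p of 0.9999. For Cd86 it was -0.45 (95% interval -1.39 to 0.48) with all libraries and 0.14 (95% interval -0.06 to 0.33) without cpdA 3 and LPS 3. The intervals therefore include differences of either sign, and do not show that the compounds act alike.

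Other genes of the class II route were taken from a list of 15, of which 14 were in the table and 13 passed the filter. Of these, 6 of 13 had negative log2 changes with DHA and 8 of 13 with cpdA, beside 50.2% and 50.6% of all genes. Their medians were 0.06 and -0.04. limma called 0 of 13 in each comparison, with 4 and 2 under an unadjusted p of 0.05, beside 14.2% and 14.6% of all genes. edgeR called 0 in each, and DESeq2 called 0 for DHA and 1, Ctsh, lower for cpdA. The genes with the smallest p were H2-DMb2 (a second H2-DM β chain), H2-Oa (the α chain of H2-O, which restrains H2-DM), Ctsh (a cysteine protease of the endosome) and Cd83, which protects class II and CD86 from degradation. Cd83 had normalised counts of 10644, 9949 and 9037 with LPS, 7530.2, 6609 and 7597 with DHA, and 7429, 8287 and 3737 with cpdA. All treated libraries were below all LPS libraries, with log2 changes of -0.45 for DHA (limma adjusted p = 0.454) and -0.69 for cpdA (limma adjusted p = 0.289). Cd83 fell with DHA in the fit without cpdA 3 and LPS 3 (-0.51, limma adjusted p = 0.0112) and was the 1 gene of the 13 called, where 6.79% of all genes were called, whereas cpdA gave -0.39 (limma adjusted p = 0.115). Ctsh differed by -0.34 with DHA (limma adjusted p = 0.314) and by -0.45 with cpdA (limma adjusted p = 0.231), and H2-DMb2 by -0.66 (limma adjusted p = 0.293) and -0.51 (limma adjusted p = 0.355). H2-Oa was near the filter, with 11.1 to 27.7 normalised counts in all libraries.

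Factors that act on Ciita or on class II promoters, and the interferon gamma receptor route to them, formed a list of 25, all kept. Of these, 18 of 25 had negative log2 changes in each comparison with LPS, against 50.2% and 50.6% of all genes. Their medians were -0.11 for DHA and -0.14 for cpdA. limma called 0 of 25 in each, with 3 and 6 under an unadjusted p of 0.05, beside 14.2% and 14.6% of all genes. edgeR called 0 in each, and DESeq2 called 0 for DHA and 1, Usf1, lower for cpdA. Usf1, a helix-loop-helix factor that binds E boxes and takes part in Ciita transcription, had the smallest limma p of the list in both. Its normalised counts were 1567, 1529 and 1803 with LPS, 1161, 1226 and 1104 with DHA, and 1334, 1215 and 963 with cpdA. Its log2 changes were -0.49 for DHA (limma adjusted p = 0.233) and -0.49 for cpdA (limma adjusted p = 0.224), and the LPS libraries were above all others. Irf8, an interferon regulatory factor of macrophages, differed by -0.60 with DHA (limma adjusted p = 0.347), Irf2 by -0.34 (limma adjusted p = 0.329), and the acetyltransferase gene Kat2b by -0.56 with cpdA (limma adjusted p = 0.252). Rfxap, a subunit of the RFX complex, had a positive log2 change of 0.34 with cpdA (limma adjusted p = 0.252). Usf1 (-0.41, limma adjusted p = 0.0143) and Irf8 (-0.42, limma adjusted p = 0.0311) fell with DHA without cpdA 3 and LPS 3, and 0 of 25 were called with cpdA. Those 2 of 25 stand beside 6.79% of all genes called for DHA in that fit, and 4.04% of all genes called lower.

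Other ligands and receptors of costimulation and coinhibition formed a list of 20, of which 18 were kept. Of these, 13 of 18 had negative log2 changes with DHA and 14 of 18 with cpdA, against 50.2% and 50.6% of all genes. Their medians were -0.20 and -0.31. limma called 0 of 18 in each, with 2 and 3 under an unadjusted p of 0.05, beside 14.2% and 14.6% of all genes. edgeR and DESeq2 called 0 as well. Their directions were mixed at the level of named genes. 4632428N05Rik, now called Vsir, encodes the coinhibitory ligand VISTA and had normalised counts of 3511, 3223 and 2579 with LPS, 4235.5, 8060.1 and 5657 with DHA, and 4172, 3767 and 8579 with cpdA. Every treated library was above every LPS library, with log2 changes of 0.91 for DHA (limma adjusted p = 0.294) and 0.74 for cpdA (limma adjusted p = 0.346). Lgals9, which encodes galectin 9, differed in the other direction, with log2 changes of -0.65 for DHA (limma adjusted p = 0.433) and -0.96 for cpdA (limma adjusted p = 0.283). Tnfsf18, the GITR ligand, was close to the filter at 1.8 to 23 normalised counts over all libraries. Its log2 change was -1.71 for cpdA (limma adjusted p = 0.224), a value that the pseudocount of 1 shrinks. Havcr2, which encodes the receptor TIM-3, had 25.4 to 148.8 normalised counts. Its log2 change was 1.23 for DHA (limma adjusted p = 0.300) and -0.01 for cpdA (limma adjusted p = 0.994). Pvrl2 differed by -0.55 with DHA (limma adjusted p = 0.355) and Cd48 by -0.27 with cpdA (limma adjusted p = 0.327). Lgals9 (-0.59, limma adjusted p = 0.0235) and the ICOS ligand gene Icosl (-0.57, limma adjusted p = 0.0143) fell with DHA without cpdA 3 and LPS 3, and 0 of 18 were called with cpdA. The share of all genes called for DHA there was 6.79%, and 4.04% were called lower.

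**Figure D4:**
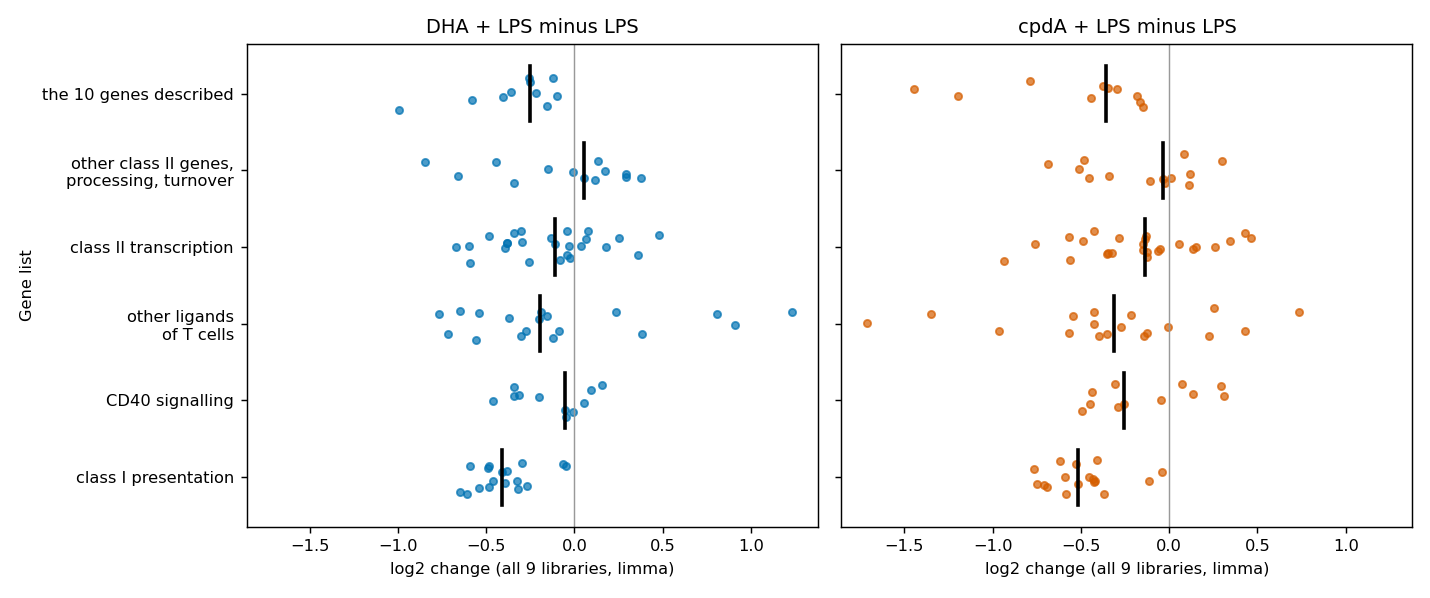
Log2 changes from LPS (horizontal axes) for each kept gene of the 10 members and of the related lists (vertical axis), 1 point per gene, for DHA and cpdA with all 9 libraries, and a bar at each list's median. The members' medians are -0.25 and -0.36, and the medians of the lists shown run from 0.06 (other class II, processing and turnover genes, DHA) to -0.52 (class I presentation, cpdA).

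Class II and CD86 are also carried by B cells and dendritic cells, so their markers were read in the same libraries. Of 16 B cell markers, 13 were in the table, and their summed normalised counts were 1288 to 1414 with LPS, 1311 to 1694 with DHA and 1269 to 1422 with cpdA. Most of that sum came from Cd22, which had a positive log2 change with DHA (0.28). Ms4a1 was at 73.7 to 89.9 with LPS, 54.5 to 71.3 with DHA and 50.8 to 88.7 with cpdA. Cd79a was at 54.2 to 80.4, 54.1 to 59.0 and 68.8 to 92.4 in the same order. Every DHA library was below every LPS library for Ms4a1 (log2 change -0.45, limma adjusted p = 0.406), as held for 15% of all genes. Those groups overlapped for Cd79a (-0.31, limma adjusted p = 0.508). Of the 10 kept, 9 had negative log2 changes with DHA and 7 with cpdA, with medians of -0.34 and -0.10. Among all genes 50.2% and 50.6% had negative changes. Of these 10 markers limma called 0 in each comparison, with 1 and 0 under an unadjusted p of 0.05. Without cpdA 3 and LPS 3 it also called 0, with DHA changes of -0.54 for Ms4a1 and -0.49 for Cd79a. Of 12 dendritic cell markers, 11 were in the table, with sums of 22683 to 45913 with LPS, 41060 to 49078 with DHA and 28336 to 48581 with cpdA. Itgax, which macrophages also express, made up most of those sums. Of the 8 kept, 5 had negative log2 changes with DHA and 6 with cpdA, beside the same 50.2% and 50.6% of all genes. Their medians were -0.34 and -0.55, beside -0.25 and -0.36 for the 10 genes described. limma called 0 of 8 in each comparison, where it called 0.0072% of all genes. An unadjusted limma p under 0.05 was reached by 1 and 2 of the 8, beside 14.2% and 14.6% of all genes. Xcr1, a marker of cross-presenting dendritic cells, was at 59.8 to 71.6 with LPS, 44.0 to 45.6 with DHA and 34.4 to 45.9 with cpdA, with log2 changes of -0.56 (limma adjusted p = 0.277) and -0.69 (limma adjusted p = 0.224). Every treated library was below every LPS library for Xcr1, as for Cd86. Clec9a, a marker of the same cells, was at 13.0, 9.2 and 39.9 with LPS and as low as 2.7 in cpdA 3. Its log2 changes were -1.21 (limma adjusted p = 0.387) and -1.90 (limma adjusted p = 0.238), with LPS 3 the highest library. Zbtb46 ranged from 56.8 to 87.8 and its treated libraries overlapped those of LPS. Other kept markers went the other way. Batf3 (0.40), Clec10a (0.78) and Itgax (0.32) had positive log2 changes with DHA, as did Itgax (0.17) and Zbtb46 (0.08) with cpdA. The lowest dendritic sums were those of LPS 3 (22683) and cpdA 3 (28336), where Itgax was at 22238 and 28115. Xcr1 was instead highest in LPS 3 (71.6) and lowest in cpdA 3 (34.4). H2-Ab1 was lowest in cpdA 3 (1241) and next in LPS 3 (1501). H2-Eb1 and Cd74 were also lowest in cpdA 3 (837 and 3582), and were lower in DHA 2 (842 and 4542) than in LPS 3 (892 and 4843). H2-Aa was lowest in DHA 2 (1182), beside 1187 in cpdA 3. The part of these cells in the values of the 10 genes was not tested.

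Markers of resident peritoneal macrophages had 12 of 12 rows in the table, of which 11 were kept and Prtn3 was at 0.0 to 1.6. The labels give macrophages of the peritoneal cavity, and resident is the name of the marker list only. Emr1, which encodes F4/80, ranged from 29157 to 43351 normalised counts, Gata6 from 183 to 406 and Timd4 from 25.4 to 202.8. Their sums, most of which came from Lyz2, were 295305 to 550064 with LPS, 529388 to 551064 with DHA and 349345 to 552403 with cpdA, the lowest being LPS 3 and cpdA 3. Single markers of this list differed in both directions. Fcgr1, the high-affinity IgG receptor, was below every LPS library in every treated library, as Cd86 was, with log2 changes of -1.35 for DHA (limma adjusted p = 0.268) and -1.64 for cpdA (limma adjusted p = 0.224), and DESeq2 called it lower in both. Over the 7 libraries without cpdA 3 and LPS 3 it fell by 0.94 with DHA (limma adjusted p = 0.000318) and by 0.74 with cpdA (limma adjusted p = 0.00452). In the same fit Timd4 fell by 1.39 with DHA (limma adjusted p = 0.00246) and by 0.98 with cpdA (limma adjusted p = 0.0492), while Csf1r rose by 0.46 with DHA (limma adjusted p = 0.0146) and Gata6 rose by 0.57 (limma adjusted p = 0.0366). These were 4 of the 11 kept for DHA and 2 of 11 for cpdA, where 6.79% and 1.6% of all genes were called. T and NK cell markers, with 6 of 12 in the table, summed to 366 to 474 with LPS, 240.4 to 269.8 with DHA and 125 to 279 with cpdA, and 3 of them were kept. Lck made up most of that sum, at 289 to 415 with LPS, 132 to 185 with DHA and 55.2 to 193 with cpdA. Cd4 differed in the other direction with DHA (log2 change 0.94, limma adjusted p = 0.282), with every DHA library above every LPS library, Cd8a differed by 0.02, and Cd3d ranged from 2.7 to 11.5. The neutrophil, mast cell and eosinophil sums were 7646 to 8921 with LPS, 5488 to 6833 with DHA and 4002 to 6547 with cpdA, nearly all of it Csf3r (6942 of 7646 in LPS 1). S100a8 differed in the other direction with DHA, at 303 to 381 against 71.6 to 255 with LPS. The monocyte-derived macrophage sums were 46789 to 63802, 56914 to 60762 and 57548 to 68631 in the same order. Their part in the values of Cd86 and the other genes was not tested.

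The genes whose pattern over the 9 libraries was nearest to that of the members were found by the root mean square difference of centred log2 values, among genes with a mean of at least 50. The pattern of the class II chains and Cd74, with a root mean square of 0.203, was nearest to Atp6v0b (0.0531), Rcan1, Zfp719, Slc23a2 and Rps20 (0.0613). For a pattern of so small a spread many genes lie close. Cd40 was nearest to Sphk1 (0.0931), 2310014L17Rik, Tarm1, Tnfaip8l3 and Atp10a (0.173), with a root mean square of its own of 0.997. Cd80 was nearest to Gbp5 (0.104), Trim30d, Ccdc23, Kpna3 and Gpsm2 (0.124). Cd86 was nearest to Phf11b (0.120), Ifi44, Gm18853, A530032D15Rik and Gm17757 (0.141). The places of these genes among 11363 depend on which pattern is the start: from Cd86, Cd80 stood at place 144 and Cd40 at 539. From Cd40, Cd86 stood at 127 and Cd80 at 147, and from Cd80, Cd86 stood at 635 and Cd40 at 4806. From the class II pattern Ciita stood at place 3032 of 11360, H2-DMb1 at 1126 and H2-DMa at 2273. The points share libraries and depth, and the patterns of Cd40, Cd80 and Cd86 are dominated by cpdA 3.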

How the data were processed

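The authors deposited 1 table of normalised counts (a signal value per gene and library), read counts divided by a size factor. Per the submitters' processing notes, CASAVA 1.8.2, Bowtie2, DESeq and build mm9 were used. The sources used here do not name a counting program, annotation or strand setting. Growth and extraction texts of other experiments (neural stem cells, chromatin) stand in the labels and were not used. Between 99.9% and 100.0% of values per library were whole reads within 0.05, and 0 columns belonged to other samples.

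Members and lists were chosen with earlier results of these data known. Genes with at least 10 in at least 3 of 9 libraries were kept (13895 of 15343). log2(value + 1) was fitted in limma 3.58.1 (R 4.3.3, statmod 1.5.0; trend and robust options, 1 mean per group, two-sided). This scale understates changes of low genes. Recovered reads were tested with edgeR 4.0.16 (3, 1 and 0 genes called for DHA, cpdA and cpdA against DHA) and DESeq2 1.42.0. The scripts were tested on simulated data. All 10 members were named, and of each list the called genes and otherwise the 3 with the smallest p in a comparison. Older symbols were written into the lists by hand, except that Spi1 (Sfpi1) and Prg2 (BC005764) were found through the synonyms deposited with the genes. A shared synonym can belong to another gene, and the match of BC005764 to Prg2 was not checked. The values of 1 marker gene are not reported here.

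Same-number LPS and cpdA libraries deviated together (r of 0.387, 0.234 and 0.437 across genes). Each r passed the rule set for pairing, over 0.1 in each pair. The highest r belonged to the LPS and cpdA libraries that stood apart, which share a replicate number. Deviations within a group sum to 0, so the other correlations are not independent of that pair. LPS 2 with cpdA 1 (0.292) and LPS 1 with cpdA 2 (0.264) also exceeded 0.1 and the second same-number pair. The rule therefore cannot decide whether the libraries were paired. The main fit did not use pairing, and a replicate block was run only as an alternative setting. Same-number DHA and LPS pairs did not all pass the rule (r from -0.07 to 0.14). With a replicate block 0 genes were called for cpdA instead of 1, and 0 of the 10 members, as without it; the limma adjusted p for Cd86 was 0.298.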

Additional observations from a re-analysis of the deposited data

How the results depend on the processing

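Of 220 member values under 22 alternatives for DHA, 206 kept their direction and their side of the threshold, 13 were newly past it and 1 changed sign. For cpdA these numbers were 216, 3 and 1. For cpdA against DHA 196 kept both and 24 changed sign, with 0 genes called under any setting. The depth limits Ciita most, and gene lengths, strand and shared reads of class II paralogs could not be examined. TMM and quantile scaling moved the median of all genes by under 0.1.

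Genes called for DHA, 1 as reported, were 3 with a filter of 50, 3 with TMM, 0 without trend and robust options, 4303 with library weights, 9 with only the libraries compared, 943 without cpdA 3 and LPS 3, 3 in edgeR, 315 in DESeq2 and 0 to 373 on leaving out each library, the highest without cpdA 3. Members called were 8 with library weights, 4 without both libraries and 0 to 1 on leaving out each library. Genes called for cpdA, 1 as reported, were 0 without trend and robust options, 563 with library weights, 0 with only the libraries compared, 222 without both libraries, 391 in DESeq2 and 0 to 3 on leaving out each library. The members called were 1, Cd86, with library weights, without both libraries and in DESeq2. With the replicate block 0 genes and 0 members were called in the DHA and in the cpdA comparison, and it changed no other call. The causes were not tested.

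Sign changes for cpdA against DHA came with library weights, for H2-Ab1 (0.22), Cd74 (0.16), H2-DMa (0.059), H2-DMb1 (0.019) and Cd40 (0.15), and without both libraries, for H2-Ab1 (0.18), Cd74 (0.16), H2-DMb1 (0.028), Cd40 (0.25), Cd80 (0.067) and Cd86 (0.14). Leaving out each library in turn gave -0.18 to 0.012 for H2-DMa with DHA and -0.38 to 0.060 for H2-Ab1 with cpdA. For cpdA against DHA it gave -0.018 to 0.13 for H2-Aa, -0.20 to 0.18 for H2-Ab1, -0.055 to 0.14 for H2-Eb1, -0.15 to 0.16 for Cd74, -0.19 to 0.028 for H2-DMb1, -1.31 to 0.25 for Cd40, -0.73 to 0.067 for Cd80 and -0.80 to 0.14 for Cd86.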

Other observations

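Class I presentation, the route to CD8+ T cells, was read from a list of 17 genes, all kept. All 17 had negative log2 changes in both comparisons with LPS, with medians of -0.41 for DHA and -0.52 for cpdA, against 50.2% and 50.6% negative among all genes, and limma called 0 of 17 in each, with 4 and 7 under an unadjusted p of 0.05, beside 14.2% and 14.6% of all genes. edgeR and DESeq2 called 0 as well. Nlrc5, the class I counterpart of Ciita, had normalised counts of 11669.7, 11664 and 14149 with LPS, 9644, 6850.2 and 8225 with DHA, and 9978, 9979 and 4448 with cpdA. Every treated library was below every LPS library, with log2 changes of -0.61 for DHA (limma adjusted p = 0.388) and -0.71 for cpdA (limma adjusted p = 0.324). The smallest p belonged to Tapbpl, a tapasin-related peptide editor (-0.54 with DHA, limma adjusted p = 0.272), and to the nonclassical class I genes H2-T10, H2-T22 and H2-T23. H2-T10 differed by -0.65 with DHA (limma adjusted p = 0.306) and by -0.75 with cpdA (limma adjusted p = 0.252). In the 7 libraries without cpdA 3 and LPS 3, 7 of 17 fell with DHA: Nlrc5 (-0.52, limma adjusted p = 0.0306), Tapbpl (-0.53), H2-Q4 (-0.53), H2-Q6 (-0.56), H2-Q7 (-0.59), H2-T10 (-0.52) and H2-T22 (-0.51). In that fit 4.04% of all genes were called lower, and 0 of 17 were called with cpdA. Values of the H2-Q and H2-T genes are uncertain, because near-identical copies may share reads.

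Genes that act below CD40 formed a list of 12, of which 11 were kept. Of these, 8 of 11 had negative log2 changes with DHA and 7 of 11 with cpdA, against 50.2% and 50.6% of all genes. Their medians were -0.05 and -0.25. limma called 0 of 11 in each comparison, where it called 0.0072% of all genes. Without cpdA 3 and LPS 3 it also called 0 of 11, where it called 6.79% and 1.6% of all genes. With all libraries 2 and 1 of 11 had an unadjusted limma p under 0.05, beside 14.2% and 14.6% of all genes. edgeR and DESeq2 called 0. Birc2, a ubiquitin ligase of the CD40 complex, had normalised counts of 1391, 1371 and 1900.1 with LPS, 1144, 1031 and 1183 with DHA, and 1149, 1301 and 1322 with cpdA. The LPS libraries were above all others, with log2 changes of -0.46 for DHA (limma adjusted p = 0.251) and -0.29 for cpdA (limma adjusted p = 0.356). Its relative Birc3 differed by -0.34 with DHA (limma adjusted p = 0.308) and the adaptor Traf2 by -0.34 (limma adjusted p = 0.413). Traf3, which holds the noncanonical NF-κB pathway in check, had a log2 change of 0.31 with cpdA (limma adjusted p = 0.272), and the kinase gene Map3k14 one of 0.29 (limma adjusted p = 0.394).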
